A study of Mus musculus with 12 samples.

Results

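Kit is the receptor tyrosine kinase on the oocyte surface that binds Kit ligand, and its RNA was measured here in oocytes of aged mice set against oocytes of young mice. The members are all probes to which the platform annotation gives the symbol Kit: 3 of 22575 probes, of which 1 lists Kit alone and 2 list Kit together with another gene (Srd5a3 in one, Cracd in the other). The probe that lists Kit alone is called the Kit probe below, and it makes Kit 1 of 3089 genes named by a probe of their own. Kit was chosen because its aged over young ratio stood out among oocyte genes in earlier results of these same arrays, so that ratio is described here with no test.

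The series holds 12 two-colour arrays of total RNA from mouse oocytes, and each array carried an aged RNA in one dye and a young RNA in the other. There were 3 pairs of RNA. Pair 1 set aged RNA 1 against young RNA 1, pair 2 set aged RNA 2 against young RNA 5, and pair 3 set aged RNA 3 against young RNA 2. Each pair was hybridised on 4 arrays, made from 2 labellings with the aged RNA in Cy5 and in Cy3, so the pair and not the array is the replicate (n = 3). The labels name no strain, no age in weeks and no oocyte stage, and nothing in them ties an RNA to its own animals, so the spread between pairs may be technical. An array ratio sets RNA against RNA, so fewer oocytes with the transcript and less transcript per oocyte cannot be told apart.

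Kit signals from the follicle to the egg: granulosa cells make its ligand, and the receptor sits on the oocyte. Bound ligand makes the receptor phosphorylate its own tail, which recruits adaptors and opens the PI3K route to Akt, Foxo3 and mTOR, and the Ras route to the MAP kinases. In the mouse this receptor keeps primordial germ cells alive, helps to wake resting follicles, and supports the growth of the oocyte. Mutations of Kit are the classical dominant white spotting alleles, which impair pigment cells, blood formation and fertility.

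The deposited values are log10 ratios of the dyes of an array, whose direction no source used here states. Kit followed the dye swap on every array. With the aged RNA in Cy5 the deposited Kit values were -0.402 and -0.169 in pair 1, -0.224 and -0.192 in pair 2, and -0.0241 and -0.0334 in pair 3 (labelling 1, then labelling 2). With the aged RNA in Cy3 they were 0.474 and 0.509 in pair 1, 0.287 and 0.345 in pair 2, and 0.165 and 0.121 in pair 3. All 6 values of the one orientation lay below 0 and all 6 of the other above it, and the orientations did not overlap.

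Read as Cy5 over Cy3, a common convention that is likely here but not settled, these values place Kit lower in aged oocytes in each pair. With the opposite convention every signed ratio below turns round. If the values were already aged over young, Kit would have changed direction with the dye in all 3 pairs, and its mean would be 0.34 rather than the negative value given next.

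After conversion to log2, centring of each array on its median and turning to aged over young, Kit lay at -0.29, -0.29, -1.70 and -1.52 on the 4 arrays of pair 1 (aged RNA in Cy5 with labelling 1 and 2, then in Cy3 with labelling 1 and 2). In pair 2 the same order gave -0.75, -0.63, -0.95 and -1.14. In pair 3 it gave -0.06, -0.12, -0.55 and -0.41. Kit was below 0 on 12 of 12 arrays, lowest on the Cy3 arrays of pair 1 and closest to 0 on the Cy5 arrays of pair 3.

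The pair values, which weigh both orientations equally, were -0.95 in pair 1, -0.87 in pair 2 and -0.29 in pair 3. Their mean was -0.70 ± 0.36 (SD, n = 3), which puts Kit RNA in aged oocytes at 0.615 of that in young oocytes. The pairs ran from 0.517 of the young level in pair 1 and 0.548 in pair 2 to 0.820 in pair 3. On these centred values pairs 1 and 2 lay close together and pair 3 nearer to no difference. The closeness depended on centring. Without it the arrays of pair 1 lay at -1.34, -0.56, -1.57 and -1.69, and those of pair 2 at -0.74, -0.64, -0.95 and -1.15, in the order above.

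**Figure D1:**
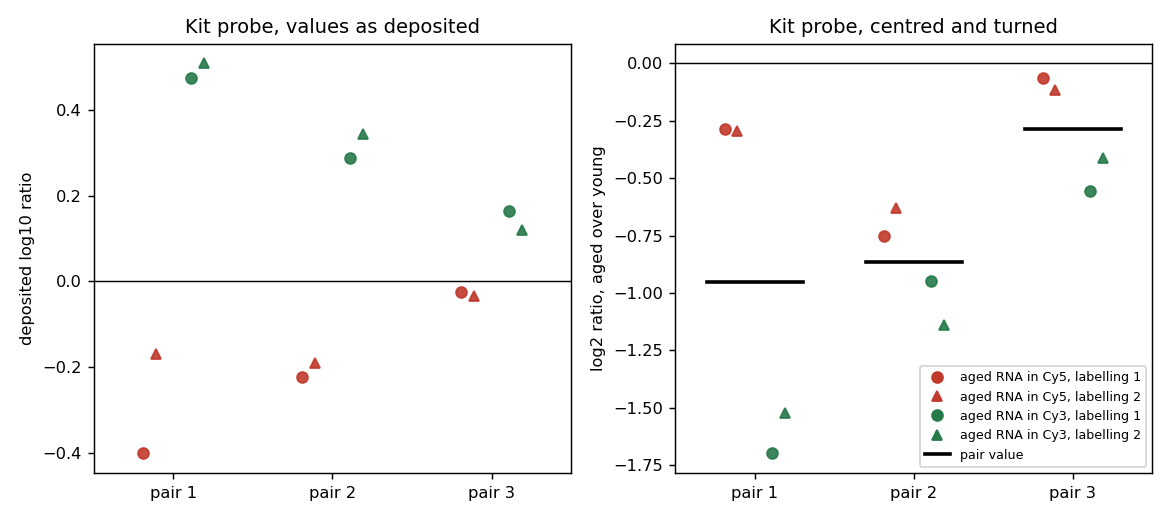
The Kit probe on the 12 arrays, by RNA pair, dye of the aged RNA (colour) and labelling (symbol); the left axis is the deposited log10 ratio and the right axis the centred log2 ratio of aged over young, with a black line at each pair value (-0.95, -0.87 and -0.29). As deposited the 6 arrays with aged RNA in Cy5 lie below 0 and the 6 with it in Cy3 above 0, so that all 12 turned values are negative.

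A sign kept on all 12 arrays was rare in the table, and Kit has it through the contrast it was chosen by. Of 3026 named genes with a value on every array, 33 (1.09%) lay below 0 on all 12, and 13 (0.43%) lay above 0 on all 12. Among all 20450 rows with a value on every array, 166 (0.812%) lay below 0 on all 12. Before the turning by dye, 127 named genes had 1 sign on all 12 arrays, and Kit, with 6 values above 0 and 6 below, was not one of them.

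Kit had the 42nd lowest mean among the 3089 named genes. Its neighbours in that order were Dym, a Golgi protein, at -0.70 ± 1.06 and Uba3, a subunit of the NEDD8 activating enzyme, at -0.69 ± 0.36 (SD, n = 3 each). These neighbours lay below 0 on 8 and 10 of 12 arrays, and the 3 genes do not differ beyond their spread. Of the genes below 0 on all 12 arrays, 9 had a lower mean than Kit. Over the whole table limma called 0 of 21398 rows (0%) between aged and young oocytes at an adjusted p under 0.05, while 1408 had an unadjusted p under 0.05. With n = 3 pairs, a gene that missed this threshold, here or below, is not shown to be alike in aged and young oocytes.

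After centring, repeat labellings of one RNA pair in one dye orientation gave close Kit ratios. The gap between them ran from 0.0061 to 0.19 on the log2 scale over the 6 combinations of pair and orientation. The SD between repeat labellings was 0.0942 for Kit, against a median of 0.338 over the named genes, and only 15 of 3026 named genes had a smaller one. In pair 1 the mean of labelling 1 was -0.99 and that of labelling 2 was -0.91, in pair 2 they were -0.85 and -0.88, and in pair 3 they were -0.31 and -0.26. This closeness depended on centring. Without it the gap ran from 0.03 to 0.77, the largest in pair 1 with aged RNA in Cy5, the SD between repeat labellings of Kit was 0.239 against a median of 0.41, and 353 named genes had a smaller one.

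**Figure D2:**
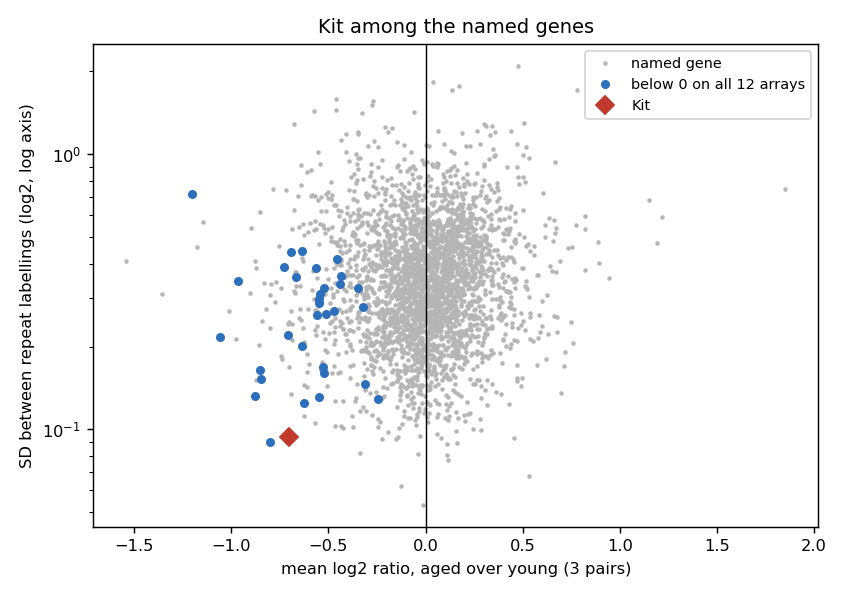
Each point is a named gene, with its mean log2 ratio of aged over young over 3 pairs on the horizontal axis and its SD between repeat labellings on a logarithmic vertical axis; blue points are genes below 0 on all 12 arrays. Kit, the red diamond at -0.70 and 0.0942, lies at the lower left, with a low ratio and a small repeat SD on these centred values.

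The size of the Kit ratio depended on which dye held the aged RNA. With aged RNA in Cy5 the pair means were -0.29, -0.69 and -0.09 in pairs 1, 2 and 3, and with aged RNA in Cy3 they were -1.61, -1.04 and -0.48. The gap between orientations was 1.32 in pair 1, 0.35 in pair 2 and 0.39 in pair 3. The median size of that gap over the named genes was 0.66, 0.34 and 0.37 in the same pairs, so Kit lay above the median in pair 1 and close to it in the other pairs. The excess in pair 1 came with centring: without it the Kit gaps were 0.68, 0.36 and 0.38, against medians of 0.65, 0.34 and 0.37. All 6 combinations of pair and orientation stayed below 0. These gaps were not scaled to the spread of each array, which differed widely within pair 1, as given below.

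The part of the Kit signal that keeps its sign with the dye swap was tested with limma on the 12 arrays, since Kit was not chosen by it. It was 0.34 ± 0.10 (SE), brighter in Cy5 than the median row under the Cy5 over Cy3 reading, with an adjusted p of 0.0282. Such calls were common, with 23.5% of 21219 rows called. The call ended without centring (0.24, adjusted p = 0.127), with arrays scaled to one spread (0.23, adjusted p = 0.0585), without pair 2 (0.43, adjusted p = 0.101) and without pair 3 (0.42, adjusted p = 0.101), and it held without pair 1 at 0.19 (adjusted p = 0.0494). These p-values rest on arrays that share RNA, and so measure technical spread. That spread takes in how far the dye part of Kit differed among pairs, at 0.66, 0.18 and 0.20 in pairs 1, 2 and 3. The model fits the same dye part for all pairs, while the SD between repeat labellings of Kit was 0.0942.

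Whether the Kit ratio differed among the 3 RNA pairs was also tested on the 12 arrays, with the dye orientation in the model. This model too fits the same dye part for all pairs, so the difference of that part among pairs enters its p-value. The pair values spanned 0.67 on the log2 scale, and the limma F test gave an adjusted p of 0.246 (unadjusted p = 0.0347), so the difference among pairs did not pass, which does not show that the pairs were alike. Without centring the span was 1.01 (adjusted p = 0.0569). Of all 21219 rows, 5.99% passed that test. Kit had a spread between pairs of 0.36 (SD), against a median of 0.24 over the named genes.

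Pair 1 stood apart on these arrays. Its array medians before centring were -1.05 and -0.27 on the log2 scale where Cy5 held the aged RNA, and -0.12 and 0.16 where Cy3 held it. Those of pairs 2 and 3 ran from -0.0088 to 0.0126. The array spreads (median absolute deviation, log2) of pair 1, in the same order, were 0.27, 0.53, 0.62 and 1.16. In pairs 2 and 3 they ran from 0.32 to 0.58. Centred Kit lay at -0.29 on the narrowest array of pair 1, -1.52 on the widest and -1.70 on that of spread 0.62. Scaling all arrays to one spread gave a Kit mean of -0.66 ± 0.32 (SD, n = 3). What part of the pair 1 values comes from spread was not tested. Without centring the 4 Kit values of pair 1 were -1.34, -0.56, -1.57 and -1.69, and Kit still lay below 0 on all 12 arrays, with a mean of -0.82 ± 0.50 (SD, n = 3). Without pair 1 the centred mean was -0.58, and without pair 3, the pair closest to 0, it was -0.91. As deposited and centred, arrays of opposite orientation correlated over all probes at a mean r of -0.194 in pair 1, 0.0937 in pair 2 and 0.17 in pair 3. Arrays of the same orientation correlated at a mean r of 0.56, 0.519 and 0.392 in the same pairs. A negative r is what dye ratios of an RNA difference alone would give. Over all probes r was lower between orientations than within them in all 3 pairs, but below 0 only in pair 1. A positive r in pairs 2 and 3 does not show that signs failed to turn, since turning and unturning parts mix in it. Kit turned in all 3 pairs, which is the contrast it was chosen by.

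The 2 probes that list Kit with another gene did not share its pattern. The probe listing Srd5a3, an enzyme of dolichol synthesis, and Kit lay at -0.04, 0.64, 0.32 and -0.79 on the arrays of pair 1 (Cy5 with labelling 1 and 2, then Cy3 with labelling 1 and 2). It lay at -0.55, -0.43, -0.0076 and -0.34 in pair 2, and at -0.08, -0.02, 0.25 and -0.0067 in pair 3. It was below 0 on 9 of 12 arrays, with pair values of 0.03, -0.33 and 0.04 and a mean of -0.09 ± 0.21 (SD, n = 3). Only in pair 2 did all 4 of its arrays lie below 0.

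The probe listing Cracd, a capping protein inhibitor, and Kit lay at 0.0064, -0.06, 0.19 and 0.15 in pair 1, in the same order of arrays. It lay at -0.11, 0.19, -0.49 and -0.05 in pair 2, and at 0.28, 0.0076, -0.31 and -0.13 in pair 3. It was below 0 on 6 of 12 arrays, with pair values of 0.07, -0.12 and -0.04 and a mean of -0.03 ± 0.09 (SD, n = 3). Its values straddled 0 in every pair.

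Across the 12 arrays, which share RNA pairs and dyes, the Kit probe correlated at r = -0.344 with the Srd5a3 and Kit probe and at r = -0.405 with the Cracd and Kit probe. Averaging all 3 probes would give Kit a mean of -0.27 ± 0.17 (SD, n = 3). The platform annotation lists 10 sequence accessions for the Kit probe and 5 for each of the other probes, and 1 of those 5 is shared with the Kit probe in each case. In the RefSeq table Srd5a3 and Cracd lie on the same chromosome as Kit, with 1 and 8 protein-coding genes between them and Kit. Neither Srd5a3 nor Cracd has a probe of its own, and which transcript these probes bind was not tested. For these probes neither the difference among pairs (limma F, adjusted p = 0.716 for Srd5a3 and Kit, 0.884 for Cracd and Kit) nor the part that keeps its sign with the dye (limma, adjusted p = 0.962 and 0.518 in that order) passed.

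**Figure D3:**
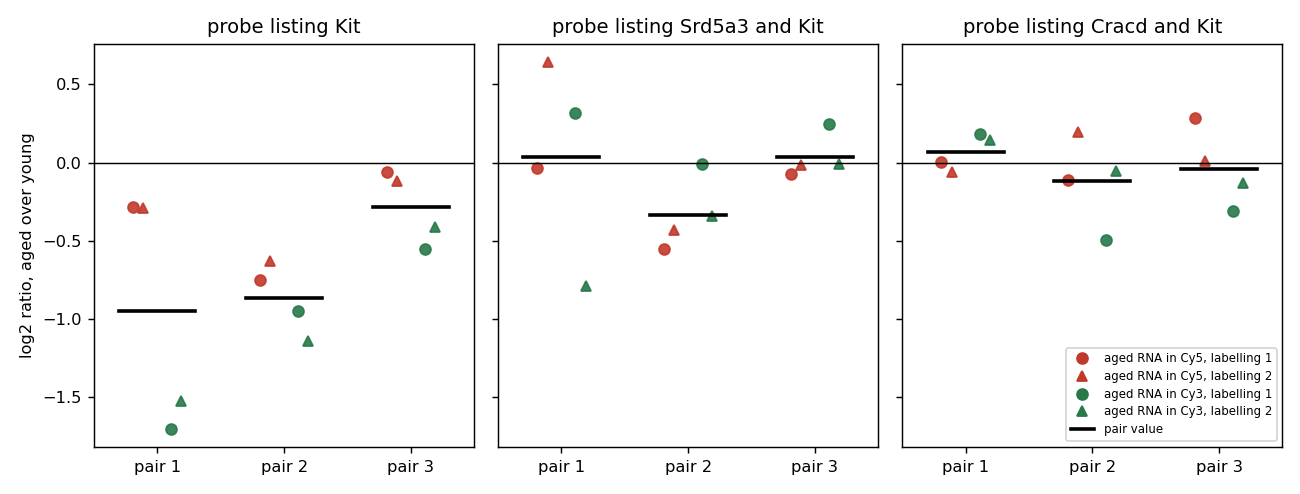
Log2 ratio of aged over young on each of the 12 arrays for the 3 probes that list Kit, by RNA pair, dye of the aged RNA (colour) and labelling (symbol), with a black line at each pair value. The Kit probe is below 0 on 12 arrays, the probe listing Srd5a3 and Kit on 9 and the probe listing Cracd and Kit on 6.

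The measured genes of the Kit pathway lay on both sides of 0, and most listed genes were not measured. Of 102 genes listed as ligand, adaptors, PI3K, Ras, JAK and STAT, or turnover factors of Kit, 28 had a probe of their own, and 15 of the 28 lay below 0 against 49.9% of all named genes. Their median was -0.02, against 0.0006 for all named genes. None passed over all rows (limma, adjusted p under 0.05, with 0% of rows called). At an unadjusted p under 0.05 there were 3 lower and 1 higher in aged oocytes, against 5.34% lower and 2.33% higher among the named genes. Kit ligand itself, Kitl, had no probe of its own, and neither had Foxo3, Akt1 or Pik3ca. Probes listing them together with other genes numbered 1 for Kitl, 3 for Foxo3, 2 for Akt1 and 2 for Pik3ca. Such probes were not used for the lists.

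At the receptor, 4 of 19 listed adaptors and Src family kinases were measured, 2 of them below 0, against 49.9% of all named genes. Crk, an adaptor that links phosphorylated receptors to small GTPases, lay at -1.02, -1.01 and -0.61 in pairs 1, 2 and 3, with a mean of -0.88 ± 0.23 (SD, n = 3; limma, adjusted p = 0.51). Crk, like Kit, was below 0 on 12 of 12 arrays, and its 2 probes lay at -1.02 and -0.74. Grb2, the adaptor that couples receptors to Ras, had a mean of 0.0001 ± 0.19 and was below 0 on 5 arrays. Sh2b3, an inhibitory adaptor of Kit in blood cells, lay at 0.23 ± 0.19, and Grb10, an adaptor that dampens insulin signalling, at -0.16 ± 0.25 (SD, n = 3 each).

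In the PI3K arm 10 of 33 genes were measured and 7 lay below 0, against 49.9% of all named genes, with a median of -0.07. Eif4e, the cap-binding protein downstream of mTOR, lay at -0.52, -0.21 and -0.35 in pairs 1, 2 and 3, with a mean of -0.36 ± 0.16 (SD, n = 3; limma, adjusted p = 0.716), though its 2 probes disagreed at -0.83 and 0.10. Bad, a pro-apoptotic target of Akt, lay at 0.37 ± 0.34, from probes at 0.31 and 0.44. Rps6, the ribosomal protein phosphorylated at the end of this route, lay at -0.31 ± 0.31, and Pik3cb, a catalytic PI3K subunit, at -0.23 ± 0.14 (SD, n = 3 each). The pairs disagreed in sign for Akt2, at 0.60, -0.08 and -0.41 in pairs 1, 2 and 3.

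In the Ras and MAP kinase arm 10 of 25 genes were measured, 4 below 0 and 6 above, against 49.9% of all named genes below 0. Map2k1, the kinase that activates the MAP kinases, lay at -0.78, -0.88 and -0.58 in pairs 1, 2 and 3, with a mean of -0.74 ± 0.15 (SD, n = 3; limma, adjusted p = 0.548). It was below 0 on 11 of 12 arrays, and its 2 probes lay at -0.85 and -0.64. Spry4, a feedback inhibitor of this route, lay at 0.30, 0.42 and 0.48, with a mean of 0.40 ± 0.09 (SD, n = 3; limma, adjusted p = 0.716). The stress kinase Mapk14 lay at -0.21 ± 0.13, and Spred2, another inhibitor of Ras signalling, at 0.13 ± 0.10 (SD, n = 3 each).

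The remaining parts of the pathway were thinly covered. Stat3 and Stat5b, transcription factors activated by cytokine receptors and kinases, lay at -0.04 ± 0.17 and -0.01 ± 0.27, the only 2 measured of 11 in their list. Of 13 turnover factors and phosphatases 2 were measured, Ptpn11, the phosphatase SHP2, at 0.34 ± 0.20 and Socs6, which promotes the degradation of Kit, at 0.10 ± 0.14 (SD, n = 3 each). The Ptpn11 probes disagreed, at -0.02 and 0.69. Socs6 and Grb2 fell below 0 without centring, and Stat5b lay above 0 with arrays scaled to one spread.

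Of 12 transcription factors listed as regulators of Kit, 3 were measured: Wt1 at 0.11 ± 0.19, Sp1 at 0.11 ± 0.48 and Gata4 at -0.05 ± 0.03 (SD, n = 3 each). Wt1 and Sp1 fell below 0 without centring, and the probes of each disagreed in sign. The germ cell factors Sohlh1, Sohlh2, Lhx8, Nobox and Figla had no probe of their own.

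Among receptors built like Kit, only Flt1 and Csf1r had a probe of their own, and both had a mean above 0. Flt1, a receptor for vascular endothelial growth factor, lay at 0.55, 0.34 and 0.55 in pairs 1, 2 and 3, with a mean of 0.48 ± 0.12 (SD, n = 3; limma, adjusted p = 0.7). Its mean was 0.84 with labelling 1 alone and 0.12 with labelling 2 alone. Csf1r, the receptor of macrophage growth factor, lay at 0.17 ± 0.10 (SD, n = 3), from 0.54 with aged RNA in Cy5 only and -0.20 with it in Cy3 only. Pdgfra and Kdr, the genes on either side of Kit in the RefSeq table, had no probe of their own, only 1 each that lists several genes. Of 42 other receptor tyrosine kinases 15 were measured, 10 of them below 0, against 49.9% of all named genes. Their means ran from -0.29 for Ryk, a receptor for Wnt proteins, to 0.45 for Erbb3, a receptor for neuregulins. In limma 0 of these 15 passed over all rows and 0 had an unadjusted p under 0.05, against 5.34% lower and 2.33% higher among the named genes.

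**Figure D4:**
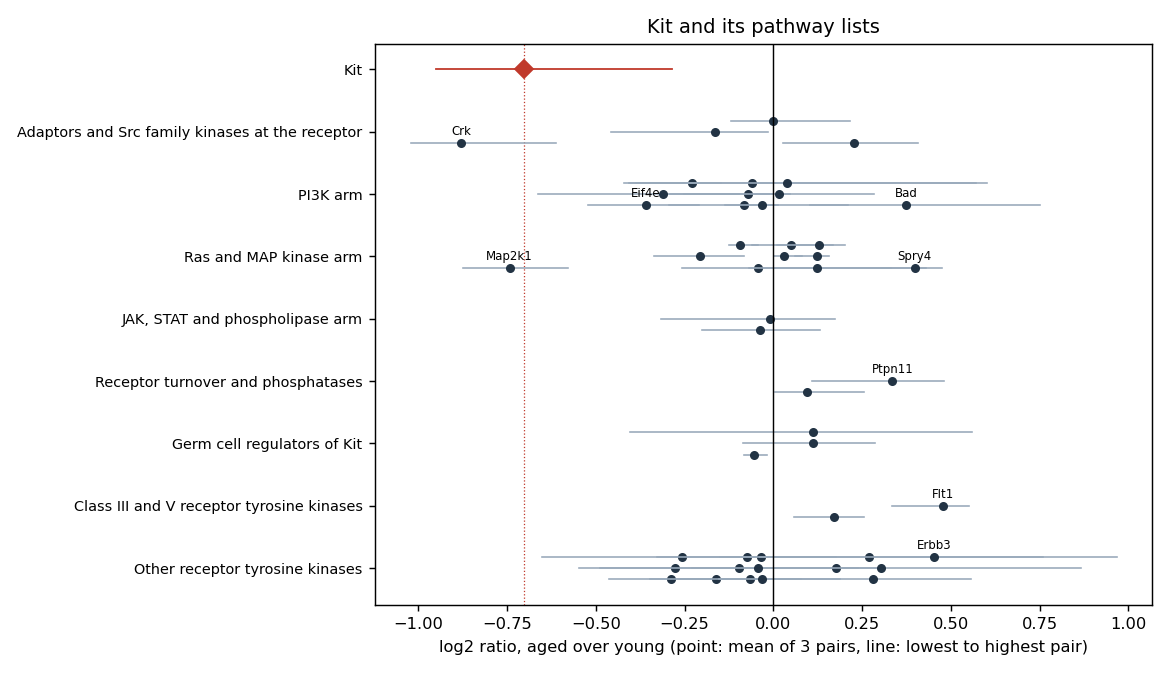
Mean log2 ratio of aged over young for Kit (red) and for each measured gene of its pathway and receptor lists; points are means of 3 pairs and lines run from the lowest to the highest pair. Kit lies at -0.70 with Crk at -0.88 and Map2k1 at -0.74, while the other measured genes lie between -0.36 and 0.48.

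The genes whose pattern over the 12 arrays was most like that of Kit were Kif20a, Rhot1, Taf4, Atf2 and Clu, by Pearson's r among 3025 named genes measured on every array. The median r of these genes with Kit was 0.227. Kif20a, a kinesin of cytokinesis, had r = 0.964 and pair values of -0.93, -0.80 and -0.07. Rhot1, a mitochondrial GTPase that links mitochondria to motors, had r = 0.959 and pair values of -0.70, -0.73 and -0.09. Taf4, a subunit of the general transcription factor TFIID, had r = 0.957 and pair values of -0.89, -0.54 and 0.03.

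Atf2, a stress-activated transcription factor, had r = 0.948 but a mean of only -0.04 ± 0.40, which lay above 0 at 0.08 with arrays scaled to one spread. Clu, a secreted chaperone, had r = 0.946 and a mean of -0.19 ± 0.27 (SD, n = 3 each). These genes were picked by the rise and fall of Kit over arrays and not by its level. The means of Kif20a, Rhot1 and Taf4 were -0.60 ± 0.46, -0.50 ± 0.36 and -0.47 ± 0.46, against -0.70 ± 0.36 for Kit (SD, n = 3 each). Kif20a, Rhot1, Taf4, Atf2 and Clu were below 0 on 9, 10, 8, 6 and 9 arrays, against 12 for Kit, which was chosen by that contrast. Over the 8 arrays of pairs 2 and 3 their r with Kit ran from 0.852 for Atf2 to 0.989 for Rhot1. Those arrays were among the 12 by which the genes were picked, so a high r there was partly built in. The likeness was measured on values turned by dye; on unturned values r was 0.959 for Kif20a, 0.975 for Rhot1, 0.89 for Taf4, 0.867 for Clu and only 0.506 for Atf2.

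The patterns most opposed to Kit were those of Zfp944, a zinc finger protein, at r = -0.879, Stx3, a membrane fusion protein, at r = -0.864, and Shroom3, an actin regulator of cell shape, at r = -0.835. Shroom3 had pair values of 0.75, 0.26 and -0.02, and the means of Zfp944 and Stx3 were 0.04 ± 0.26 and 0.10 ± 0.27 (SD, n = 3 each), both below 0 without centring. On unturned values their order was the reverse, at r = -0.467 for Zfp944, -0.557 for Stx3 and -0.756 for Shroom3. The points behind each r share 3 RNA pairs and 2 dye orientations, and the Cy3 arrays of pair 1, where Kit was lowest, lie far from the rest.

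**Figure D5:**
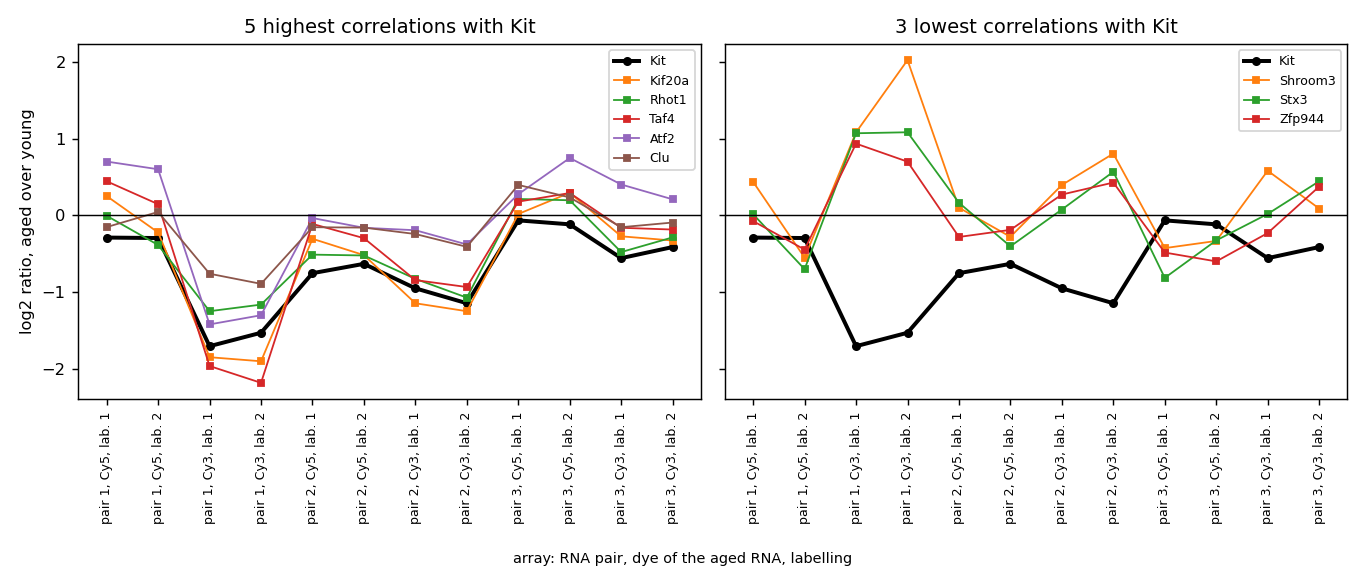
Log2 ratio of aged over young on each of the 12 arrays for Kit (black) with the 5 named genes of highest correlation (left) and the 3 of lowest correlation (right); arrays are ordered by RNA pair, dye of the aged RNA and labelling. Kit and the genes on the left are lowest on the 2 arrays of pair 1 with aged RNA in Cy3, and the genes on the right are highest there.

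Markers of the cells in the samples were sparsely named. Of 18 oocyte markers 3 had a probe of their own. Dppa3, a maternal-effect gene, had pair values of 0.85, 0.47 and 0.53, Zp2, a protein of the egg coat, -1.69, 0.56 and -2.41, and Bmp15, an oocyte growth factor, -0.85, 0.06 and -0.14. Their summed level cannot be had from ratios, and the list mean was -0.56, 0.37 and -0.67 in pairs 1, 2 and 3, an order that Kit did not share. That order is the order of Zp2, whose SD over pairs was 1.55, against 0.20 for Dppa3 and 0.48 for Bmp15. The Dppa3 ratio depended on the dye, with a mean of 0.10 with aged RNA in Cy5 only and 1.13 with it in Cy3 only. For Bmp15 these means were -0.17 and -0.45. Of 16 cumulus and granulosa markers 3 were measured, with list means of 0.02, -0.26 and 0.09, and 1 of 10 theca and stroma markers, Ptch1, at 0.10 ± 0.10 (SD, n = 3), which lay below 0 without centring. Of 12 blood and immune markers 4 were measured, with list means of 0.31, 0.13 and 0.09, and 0 of 9 mast cell markers, the other Kit-bearing cell listed, had a probe of their own. The part of other cells in the Kit ratio was not tested.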

How the data were processed

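The authors deposited 1 value per probe and array, taken as a log10 ratio of the 2 dyes because the values carry both signs and stop at -2 and 2. Not given in the sources used here are background correction, dye normalization, scaling, centring and direction. Spot intensities were not used either. The number of RNA pairs, 3, limits the precision of aged against young. Values on the limits (1215) or exactly 0 (513), 0.638% of all and none on the 3 probes listing Kit, were treated as missing. Values were converted to log2, centred on each array's median and given the sign of aged over young from each label's dyes, as Cy5 over Cy3. Arrays were averaged within orientation, then over both orientations, to 1 value per RNA pair. Probes with the same single symbol were averaged; probes with several genes or none stayed separate rows.

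Genes were named from the platform annotation; for 4247 of 4262 single-gene probes the annotated ID was found in RefSeq's GRCm38.p6 gene table, and no positions are printed because no source names a build. Limma 3.58.1 in R 4.3.3 tested the pair values against 0 (rows with at least 2 pairs), the RNA pair with the dye orientation in the model, and the part keeping its sign with the dye, the pair and dye tests on 12 arrays, all two-sided with Benjamini-Hochberg adjustment over all rows at 0.05. Files were read with data.table (version 1.17.8). The fits were also run on simulated data, whose outcome is not given here and is not used as support. The member and the gene lists were chosen with earlier results of these data known. Named genes were Kit, genes named whatever their values (Kitl, Foxo3, Map2k1, Akt1, Pik3ca; another is not reported here), up to 4 of each list by smallest p, the nearest genes in rank, and the 5 highest and 3 lowest correlations with Kit. Akt2 was named after its values were seen. Alternatives covered centring, scaling, labelling, orientation, direction, limit values, probes, each replicate left out and a random block.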

Additional observations from a re-analysis of the deposited data

How the results depend on the processing

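Over 12 settings that kept the Cy5 over Cy3 reading, the Kit ratio stayed below 0, from -1.05 with aged RNA in Cy3 only to -0.27 with the 2 probes listing Kit and another gene averaged in; with aged RNA in Cy5 only it was -0.36, and with a pair left out it ran from -0.91 to -0.58. It turned to 0.70 with values read as Cy3 over Cy5 and to 0.34 with values read as already aged over young. The part of Kit that keeps its sign with the dye missed the threshold without centring (0.24), with arrays scaled to one spread (0.23), and with labelling 1 only (0.35) or labelling 2 only (0.34), where 6 arrays are fitted; with a pair left out it ran from 0.19 to 0.43. Rows called for that part numbered 4981, against 0 with either labelling alone and from 0 to 6112 with a pair left out. Rows called among RNA pairs numbered 1272, against 462 with arrays scaled and 0 with either labelling alone; Kit did not pass that test in any of these settings. Rows called between aged and young numbered 0, against 13 without centring, from 0 to 43 with a pair left out, 288 with 12 arrays and the pair as a random block (whose estimated correlation was -0.0119, so the arrays of a pair counted almost as separate replicates), and 1408 at an unadjusted p under 0.05. Of 28 Kit signalling genes 15 lay below 0, against 49.9% of named genes. The count was 8 with values read as already aged over young, and from 13 to 15 with a pair left out. No share of named genes is given for those settings, so these counts are not a result about the pathway. Without centring 21 lay below 0, against 70.3% of named genes. Of the 43 other named genes 8 changed sign without centring, 2 with arrays scaled, 15 with aged RNA in Cy5 only, 8 with it in Cy3 only and 29 with values read as already aged over young, and 0 passed limma's threshold in any setting run on them. The causes of these changes were not tested. The fit is paired by construction, since every array sets an aged RNA against a young RNA, and no unpaired fit could be made from ratios.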
